A study of Mus musculus with 4 samples.

Results

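The Hox genes of mouse endosteal bone marrow are described here by cell type and library. A member is any gene whose symbol is Hox, then a cluster letter from a to d and a paralog number, and which is listed in the tables of all 4 libraries. The rule finds 39 members among the 26600 genes that the 4 tables share. All libraries came from male Col2:Td mice (Col2-Cre Rosa26 lsl-tdTomato, strain B6SJL/F1), in which Cre under a type II collagen promoter leaves a red reporter, Td, in chondrocytes and in the mesenchymal lineage of the marrow. Cells were released by digestion from the inner surface of long bones, with periosteum, epiphyses and central marrow removed, and the Td peak or the brightest 1% of cells was sorted. One droplet library was made per age, from 2 pooled mice at 1 month and 3 pooled mice each at 1.5, 3 and 16 months. No other treatment or genotype was compared, and the labels do not say which long bones, or which limb, each cell came from.

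Hox genes encode homeodomain transcription factors that lie in 4 clusters, and their order along a cluster follows the order of their domains along the body axis. Genes at the same place in different clusters are paralogs and share a number. Low numbers are called anterior and high numbers posterior. The posterior paralogs of the a and d clusters also pattern the segments of the growing limb, and adult connective tissue cells are known to keep a Hox pattern that reflects where in the body they arose. Hox proteins bind DNA together with TALE proteins of the Pbx and Meis families, and in blood Hoxa and Hoxb genes are known for their part in stem and progenitor cells.

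In GRCm38 the a cluster spans chr6:52155590-52260880 with 11 members and the b cluster chr11:96194316-96368256 with 10. The c cluster spans chr15:102921103-103036852 with 9 members and the d cluster chr2:74668310-74765142 with 9. Promoter sequences from RefSeq (GRCm38.p6) matched 22 of the 39 members. The 250 bases before the start of Hoxa10, Hoxa5 and Hoxb8 are shown, because the first of them was higher in mesenchymal than in endothelial cells and the other pair higher in endothelial cells. Hoxa10 (chr6:52240855-52241104) and Hoxa5 (chr6:52204588-52204837) are on the minus strand and Hoxb8 (chr11:96281655-96281904) on the plus strand. Each is printed 5′ to 3′, and capitals mark the motif TTTATNG, which posterior HOX and CDX proteins can bind.
Hoxa10: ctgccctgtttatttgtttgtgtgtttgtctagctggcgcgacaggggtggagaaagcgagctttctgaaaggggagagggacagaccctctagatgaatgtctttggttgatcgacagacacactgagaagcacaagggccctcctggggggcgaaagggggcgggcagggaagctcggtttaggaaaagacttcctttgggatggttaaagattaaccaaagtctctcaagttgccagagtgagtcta
Hoxa5: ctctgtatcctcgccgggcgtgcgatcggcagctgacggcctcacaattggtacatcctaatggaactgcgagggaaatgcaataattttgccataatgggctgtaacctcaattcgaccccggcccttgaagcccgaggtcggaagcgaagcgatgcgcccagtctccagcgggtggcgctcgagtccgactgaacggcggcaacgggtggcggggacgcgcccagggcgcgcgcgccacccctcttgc
Hoxb8: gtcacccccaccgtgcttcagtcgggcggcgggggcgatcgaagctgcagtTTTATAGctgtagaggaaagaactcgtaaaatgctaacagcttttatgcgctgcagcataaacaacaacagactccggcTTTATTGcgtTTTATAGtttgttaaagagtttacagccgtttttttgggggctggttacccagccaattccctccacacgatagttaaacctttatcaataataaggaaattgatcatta
The Hoxa10 stretch has a GC content of 51.6% and 7 CpG, the Hoxa5 stretch 63.6% and 28 CpG, and the Hoxb8 stretch 44.4% and 12 CpG. The 3 motifs named here were searched on both strands of the 250 bases before the start in each promoter. TTTATNG was found in 3223 of 32851 promoters (9.81%) and, among members, in those of Hoxb8 and Hoxd4. The MEIS motif TGACAG was found in 5210 promoters (15.9%), among them Hoxa2 and Hoxa3, and the HOX with PBX motif TGATTNAT in 928 promoters (2.82%), among them Hoxa2 and Hoxd11. A match describes letters only.

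The 4 tables held 8417, 5745, 4516 and 9229 barcodes and 108227184, 63258961, 32672631 and 93269331 UMIs (unique molecular identifiers, each counting 1 captured transcript end) at 1, 1.5, 3 and 16 months. After limits on genes and mitochondrial reads 8308, 5453, 4180 and 6143 cells were kept. Clusters were built without the Hox genes and named from marker genes. Endothelial clusters were led by Cldn5, Cdh5, Kdr and Flt1, and mural clusters, the pericytes and smooth muscle around vessels, by Rgs5, Acta2, Tagln and Myh11. Despite the Td sort, 5697, 142, 1359 and 760 of the kept cells were hematopoietic, while 1751, 3156, 1618 and 4735 were bone marrow mesenchymal cells without chondrocytes. Endothelial cells numbered 171, 31, 247 and 91 and mural cells 26, 65, 31 and 24. Libraries shared up to 61 barcodes (1 and 1.5 months), with 49 shared at 1 and 3 months and 30 at 1.5 and 3 months, and at most 2 with the 16 month library. The 16 month table lists 31054 genes and the others 27999, so age and annotation cannot be told apart. Levels are given as CPM, UMIs per 1e6 UMIs of the shared genes summed over the cells of a class, with 95% exact Poisson intervals, and shares and ratios with 95% exact binomial intervals. With 1 library per age there was no replicate of any group, no test was possible, and intervals cover counting error only.

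Hox UMIs over all barcodes numbered 7417, 15062, 5689 and 26970, and 35, 34, 33 and 36 members had at least 1 UMI. Hoxd12 was at 0 in all 4 libraries, and Hoxb13, a gene of the posterior body end, had 1 UMI in all. Hoxd1, Hoxd3, Hoxd10, Hoxd11 and Hoxd13 each had at most 6 UMIs in a library. Among these, Hoxd13 is known for patterning digits and Hoxd11 for the forearm and shin. The 13 members (Hoxa5, Hoxa7, Hoxa9, Hoxa10, Hoxb2, Hoxb4, Hoxb7, Hoxb8, Hoxc4, Hoxc6, Hoxc8, Hoxc9 and Hoxc10) that reached 20 CPM in a class of at least 50 cells are named by level, and the other 26 peaked at or below 18.0 CPM. Hoxb9 had that highest peak, in endothelial cells at 16 months. Hoxa11, which patterns the limb segment between elbow and wrist or knee and ankle, peaked at 7.57 CPM in chondrocytes at 1 month, and Hoxa13, which patterns hands and feet, had 11, 8, 4 and 88 UMIs over all barcodes. Each of the 13 was therefore followed by class, and the remaining ones are given by counts, except where a comparison turns on them.

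**Figure D1:**
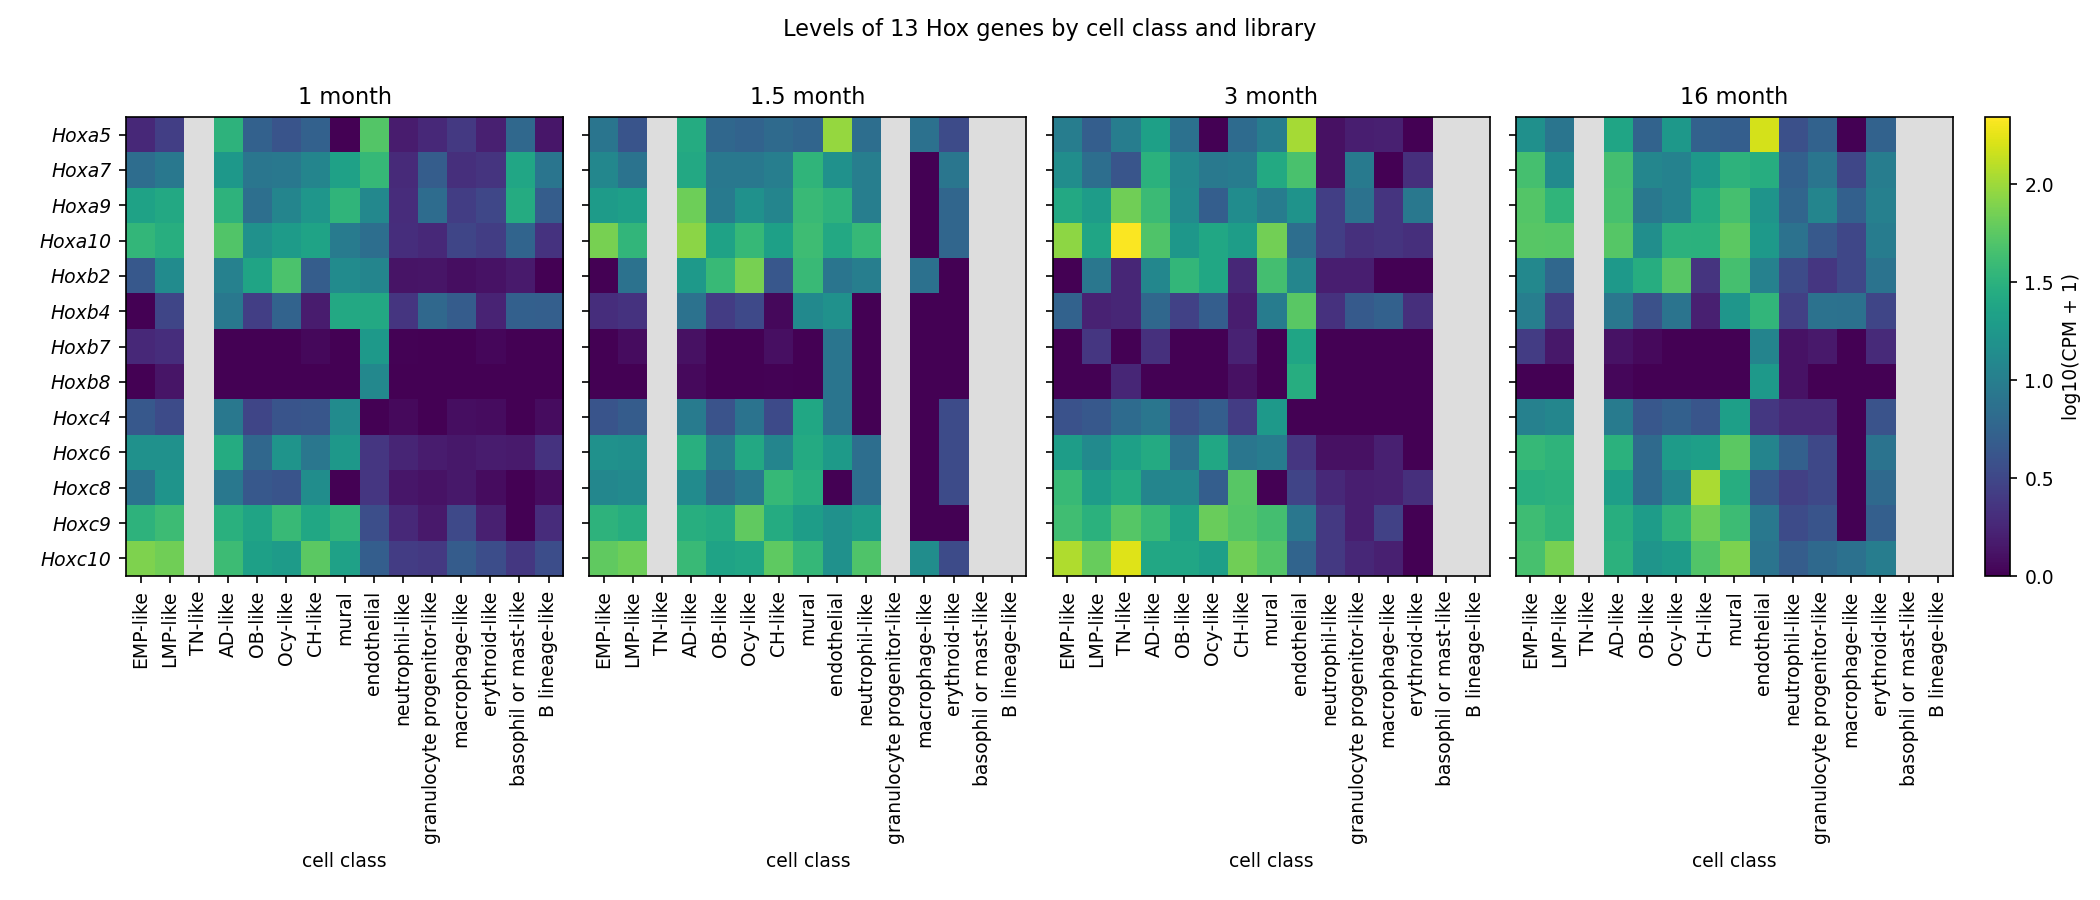
Levels of the 13 named Hox genes (rows) in cell classes (columns) of the 4 libraries, as color on a log10(CPM + 1) scale; grey marks classes with fewer than 20 cells. Hoxa9, Hoxa10, Hoxc9 and Hoxc10 are bright across the mesenchymal classes, Hoxa5 and Hoxb4 in endothelial cells, and the hematopoietic columns are dark at 1 and 3 months.

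Hox genes were expressed in mesenchymal, mural and endothelial cells and were low in hematopoietic cells. Summed over the 39 members, mesenchymal cells held 215 CPM (208 to 222), 290 (283 to 296), 262 (253 to 272) and 315 (310 to 319) at 1, 1.5, 3 and 16 months. Endothelial cells held 231 CPM (208 to 257), 305 (244 to 377), 386 (355 to 419) and 401 (369 to 435). Mural cells, with few cells in each library, held 208 CPM (155 to 275), 332 (280 to 392), 316 (222 to 435) and 504 (420 to 600). Endothelial and mesenchymal intervals overlapped at 1 and 1.5 months, and endothelial cells were above at 3 and 16 months. Hematopoietic cells held 17.3 CPM (16.4 to 18.3), 88.5 (75.1 to 104), 19.7 (17.1 to 22.5) and 58.3 (53.5 to 63.4), below the other lineages in each library. After each cell was thinned to 3000 UMIs, 46.4%, 56.6%, 52.9% and 60.9% of mesenchymal cells had a Hox UMI, against 81.4%, 84.4%, 72.2% and 90.4% at full depth. The thinned share was 53.8%, 54.8%, 62.4% and 63.2% in endothelial cells and 4.30%, 16.2%, 5.09% and 10.1% in hematopoietic cells. At full depth these were 80.1%, 80.6%, 83.0% and 91.2% in endothelial and 16.1%, 40.8%, 10.8% and 22.2% in hematopoietic cells. Thinning left out no more than 153 mesenchymal, 18 endothelial and 140 hematopoietic cells in a library.

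**Figure D2:**
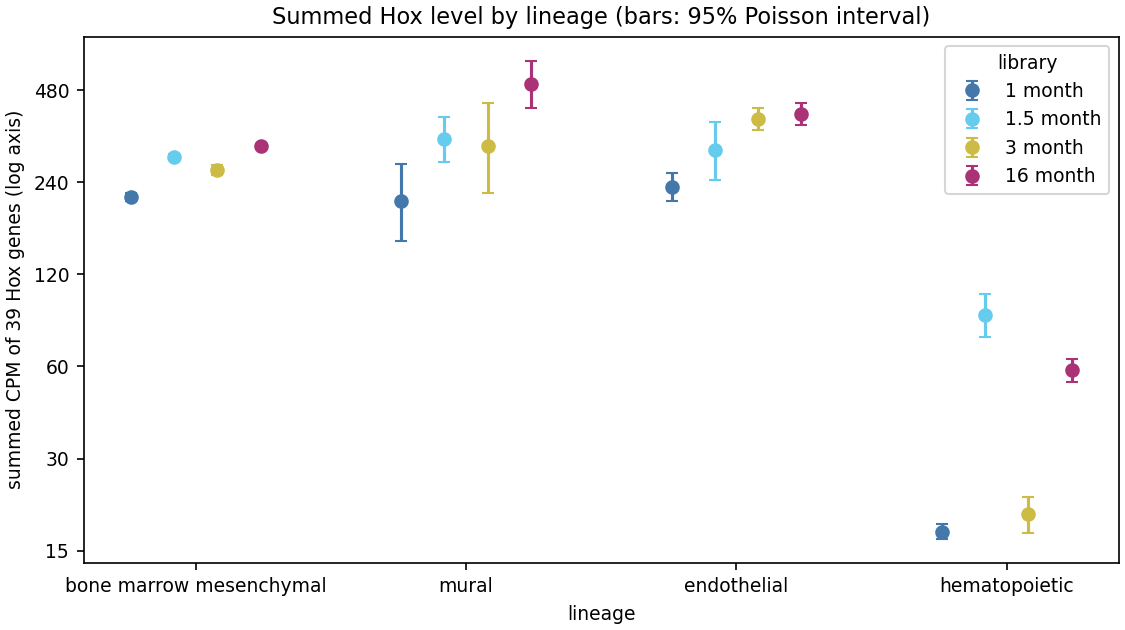
Summed level of the 39 Hox genes (CPM, log axis) in mesenchymal, mural, endothelial and hematopoietic cells of each library; points are 1 library each and bars the 95% exact Poisson intervals. The hematopoietic points lie lowest at every age, at 17.3 to 88.5 CPM, and the other lineages lie between 208 and 504 CPM.

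The hematopoietic level was 8.05% (7.56 to 8.57), 30.6% (25.9 to 35.9), 7.5% (6.49 to 8.64) and 18.5% (17.0 to 20.2) of the mesenchymal one. Droplets carry free RNA of other cells, so 7 mesenchymal marker genes were measured the same way. Their hematopoietic level was 2.05 to 3.80% of the mesenchymal one at 1 month (median 3.21%), 18.2 to 50.2% at 1.5 months (median 23.5%), 0.968 to 6.08% at 3 months (median 1.59%) and 5.05 to 16.9% at 16 months (median 16.2%). The Hox sum thus lay inside the marker range at 1.5 months and above its highest marker at the other ages, by a margin that at 3 and 16 months was small. Where the 5% of cells with the highest doublet score were left out, the Hox ratio was 6.90% at 1 month, 5.43% at 3 months and 12.6% at 16 months, and marker ratios were not recomputed for that setting. Single members were read against the markers too. At 1 month 8 of the 26 members that could be measured (Hoxa2, Hoxa3, Hoxa4, Hoxa5, Hoxa7, Hoxa9, Hoxb3 and Hoxb4) had an interval above every marker. At 1.5 months 0 of 24 did, at 3 months 3 of 19 (Hoxa7, Hoxa9 and Hoxb4) and at 16 months 3 of 27 (Hoxb3, Hoxb4 and Hoxb7). The share of all genes above every marker was not computed, so these counts do not set Hox genes apart from other genes.

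Hoxb4, known for its ability to expand blood stem cells when overexpressed, was at a like level in both lineages at 1 and 3 months. Its level was 3.03, 0, 2.43 and 3.28 CPM in hematopoietic and 2.95, 3.31, 3.15 and 6.28 CPM in mesenchymal cells. The hematopoietic level was therefore 103% (76.2 to 141) of the mesenchymal one at 1 month, 76.9% (44.2 to 133) at 3 months and 52.3% (35.0 to 75.7) at 16 months. Hoxa7 stood at 38.8% (32.0 to 47.2), 48.7%, 26.3% (17.9 to 37.9) and 18.2% of its mesenchymal level. Hoxa9, a gene of blood progenitors that is overexpressed in acute leukemias, stood at 18.4%, 35.5%, 15.8% and 21.3%. Hoxa10, by comparison, stood at 3.90%, 19.4%, 3.52% and 14.5% and Hoxc10 at 3.55%, 47.2%, 2.94% and 19.8%, so both lay inside the marker range or, for Hoxa10 at 1 month and Hoxc10 at 16 months, just above it, while Hoxa7, Hoxa9 and Hoxb4 were above it at 1 and 3 months. Within the blood cells of the 1 month library, basophil or mast-like cells held 68.6 Hox CPM (58.0 to 80.7), with Hoxa7 at 23.5 CPM and Hoxa9 at 26.3 CPM, and Meis1, their DNA-binding partner in blood progenitors, at 55.0 CPM. B lineage-like cells held 23.6 Hox CPM, granulocyte progenitor-like cells 20.5 and neutrophil-like cells 9.78 in the same library. A cluster of 468 cells without a name, led by Ass1, Nrg1 and BC035044, held 28.9 Hox CPM, with Hoxa7 at 13.9 CPM, Hoxb4 at 5.37 CPM and Hoxa9 at 6.11 CPM.

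Each member counted between lineages had at least 5 CPM in 1 of the compared groups. Mesenchymal cells were at least 2-fold higher than hematopoietic cells for 9 of 9 such members at 1 month (over all genes, 31.2% were), 11 of 11 at 1.5 months (19.7%), 9 of 9 at 3 months (29.6%) and 14 of 15 at 16 months (35%). The same 9 members counted at 1 and 3 months were Hoxa5, Hoxa7, Hoxa9, Hoxa10, Hoxb2, Hoxc6, Hoxc8, Hoxc9 and Hoxc10. No member was at least 2-fold lower in mesenchymal cells, against 15.9%, 16.2%, 16.3% and 14.1% of all genes. The median log2 fold over these members was 4.68, 1.93, 4.37 and 2.46, beside 0.31, 0.08, 0.26 and 0.56 over all genes. The 5 CPM limit passes a member through the group where it is high, so these counts describe the members that passed and not all 39.

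Paralogs 9 and 10 made up most of the mesenchymal Hox UMIs at 1, 1.5 and 3 months. Hoxa10, known for setting the lumbar region, stood at 30.9 CPM (28.4 to 33.6), 62.7 (59.8 to 65.7), 53.1 (48.7 to 57.7) and 43.7 (42 to 45.6) in mesenchymal cells. Its paralog Hoxc10, known from hindlimb-level motor neurons and hindlimb tissue, stood at 51.5 CPM (48.3 to 54.8), 49.0 (46.5 to 51.7), 54.0 (49.7 to 58.7) and 31.1 (29.6 to 32.6). AD (adipocyte lineage-like cells, described by class further on) made up 255 of the 1751, 1213 of the 3156, 423 of the 1618 and 3644 of the 4735 mesenchymal cells, so these pooled levels weigh the classes differently in each library and give no order of the libraries. Within classes the order differed, with Hoxc10 at 39.1, 37.3, 24.2 and 31.2 CPM in AD and 67.2, 65.6, 61.5 and 71.9 CPM in late mesenchymal progenitor-like cells. Hoxc9, which marks thoracic level in the spinal cord, was at 31.7, 31.4, 32.2 and 27.4 CPM, and Hoxa9 stood at 18.7, 32.6, 26.0 and 36.8 CPM. Among more anterior members, Hoxa5 was at 7.41, 11, 9.66 and 18.7 CPM and Hoxa7 at 9.45, 13.1, 13.5 and 35.5 CPM in the pooled cells, while AD alone had Hoxa5 at 32.0, 26.9, 20.3 and 23.0 CPM. Hoxc4 was at 3.54, 5.59, 4.02 and 7.44 CPM, Hoxc6 at 14.5, 20.1, 14.6 and 25.8 CPM and Hoxc8 at 9.61, 11.7, 16.0 and 17.6 CPM. Hoxb2, known for hindbrain patterning, was at 14.5, 21.9, 16.7 and 18.1 CPM. Of the members, 12 overlap another listed gene on the same strand and 13 on the opposite strand, among them Hoxa4 to Hoxa6 under a long Hoxa3 transcript and Hoxc6 to Hoxc10 under a long Hoxc5 transcript, and the sources used here do not state how reads in such overlaps were counted.

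Endothelial cells carried another set of Hox genes, with Hoxa5, Hoxb4, Hoxb7 and Hoxb8 above their mesenchymal levels. At least 2-fold higher in endothelial than in mesenchymal cells were 8 of 15 members at 1 month (19.5% of all genes), 1 of 8 at 1.5 months (14.5%), 10 of 17 at 3 months (26.4%) and 8 of 19 at 16 months (16.8%). At least 2-fold lower were 5 members at 1 month (14.3% of all genes), 4 at 1.5 months (13.6%), 5 at 3 months (13.5%) and 8 at 16 months (14%). Hoxa5 was in the higher set in every library, and Hoxb4, Hoxb7, Hoxb8 and Hoxb9 at 1, 3 and 16 months. Hoxa10, Hoxc9 and Hoxc10 were in the lower set in every library. The median log2 fold over all genes was 0.22, -0.01, 0.37 and 0.06. Besides the 5 CPM limit, members counted here had at least 10 UMIs in the higher group. The same limits held for mural cells and for the classes set against AD below. These limits pass a member through the group where it is high, so the counts describe the members that passed and not all 39. The 1.5 month library held only 31 endothelial cells, so few of its members passed the limit on UMIs.

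Hoxa5, a gene of the neck and upper chest that is also known for holding endothelial cells in a resting state, stood at 51.1 CPM (40.3 to 63.8), 92.2 (60.2 to 135), 105 (89.0 to 123) and 155 (135 to 177) in endothelial cells. This was 6.89-fold (5.15 to 9.17), 8.38-fold (5.39 to 12.5), 10.9-fold (8.40 to 14.1) and 8.31-fold (7.15 to 9.62) its mesenchymal level, with intervals that did not overlap in any library. In cells thinned to 3000 UMIs it was seen in 14%, 16.1%, 22.7% and 28.7% of endothelial cells (27.5%, 38.7%, 35.6% and 58.2% at full depth). The share was 2.34%, 3.84%, 2.80% and 5.62% in mesenchymal and at most 0.348% in neutrophil-like cells, so the endothelial share was the highest of these in every library. Hoxb4 stood at 25.2, 14.2, 54.8 and 33.9 CPM in endothelial cells, 8.54-fold, 17.4-fold and 5.40-fold its mesenchymal level at 1, 3 and 16 months. Hoxa7 was at 35.8, 14.2, 46.0 and 27.7 CPM, higher than in mesenchymal cells at 1 month (3.79-fold) and 3 months (3.41-fold) and at 0.779 of their level at 16 months.

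The b cluster members of paralogs 7 to 9, which mark thoracic level in the embryo, were nearly absent from mesenchymal cells. Hoxb8, which is also used in blood progenitors and microglia, had 17, 2, 41 and 25 UMIs in endothelial cells (11.3, 7.09, 27.7 and 17.3 CPM) and 1, 1, 1 and 4 UMIs in the many more mesenchymal cells (0.0537, 0.0356, 0.0956 and 0.0766 CPM). The ratio was 210 (32.9 to 8776) at 1 month, 290 (49.3 to 11740) at 3 months and 226 (78.0 to 894) at 16 months, with the width set by the few mesenchymal UMIs. It was seen in 3.51%, 0%, 7.86% and 5.75% of thinned endothelial cells, where 0 of 31 cells allows a share of up to 11.2%, and in 8.19%, 6.45%, 14.6% and 19.8% at full depth. Hoxb7 stood at 17.2, 7.09, 23.0 and 10.4 CPM in endothelial and 0.483, 0.214, 0.382 and 0.287 CPM in mesenchymal cells, a ratio of 35.7 (16.2 to 86.6), 60.2 (21.5 to 233) and 36.2 (16.5 to 79.4) at 1, 3 and 16 months. Hoxb9 stood at 11.3, 0, 8.12 and 18.0 CPM in endothelial cells, 30-fold higher than in mesenchymal cells at 1 month (11.8 to 85.6) and at least 28.3-fold higher at 3 months, where mesenchymal cells had 0 UMIs and 3 were taken in their place. Hoxb6 was at least 47.2-fold higher at 3 months (20 against 0 UMIs) and 58.8-fold higher at 16 months. From the d cluster, Hoxd8 was 5.06-fold higher at 3 months (13.5 CPM) and 1.03-fold at 16 months (6.92 CPM), and Hoxd4 was 26.0-fold higher (6.86 to 145) at 3 months, at 7.44 CPM.

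The posterior members were the converse. Hoxa10 stood at 5.97, 24.8, 6.09 and 17.3 CPM in endothelial cells, 0.193, 0.396, 0.115 and 0.396 of its mesenchymal level. Hoxc10 stood at 3.98, 14.2, 4.74 and 6.92 CPM, or 0.077, 0.289, 0.088 and 0.223 of that level. Hoxc9 was at 2.65, 14.2, 7.44 and 7.61 CPM and Hoxc4 at 0, 7.09, 0 and 1.38 CPM. The 7 mesenchymal markers stood in endothelial cells at a median of 7.82%, 9.48%, 3.46% and 11.7% of their mesenchymal level (highest 26.6%, 51.4%, 24.9% and 48.6%), so the endothelial Hoxa10 and Hoxc10 lay inside the marker range in each library, and the part of free RNA in them was not tested.

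**Figure D3:**
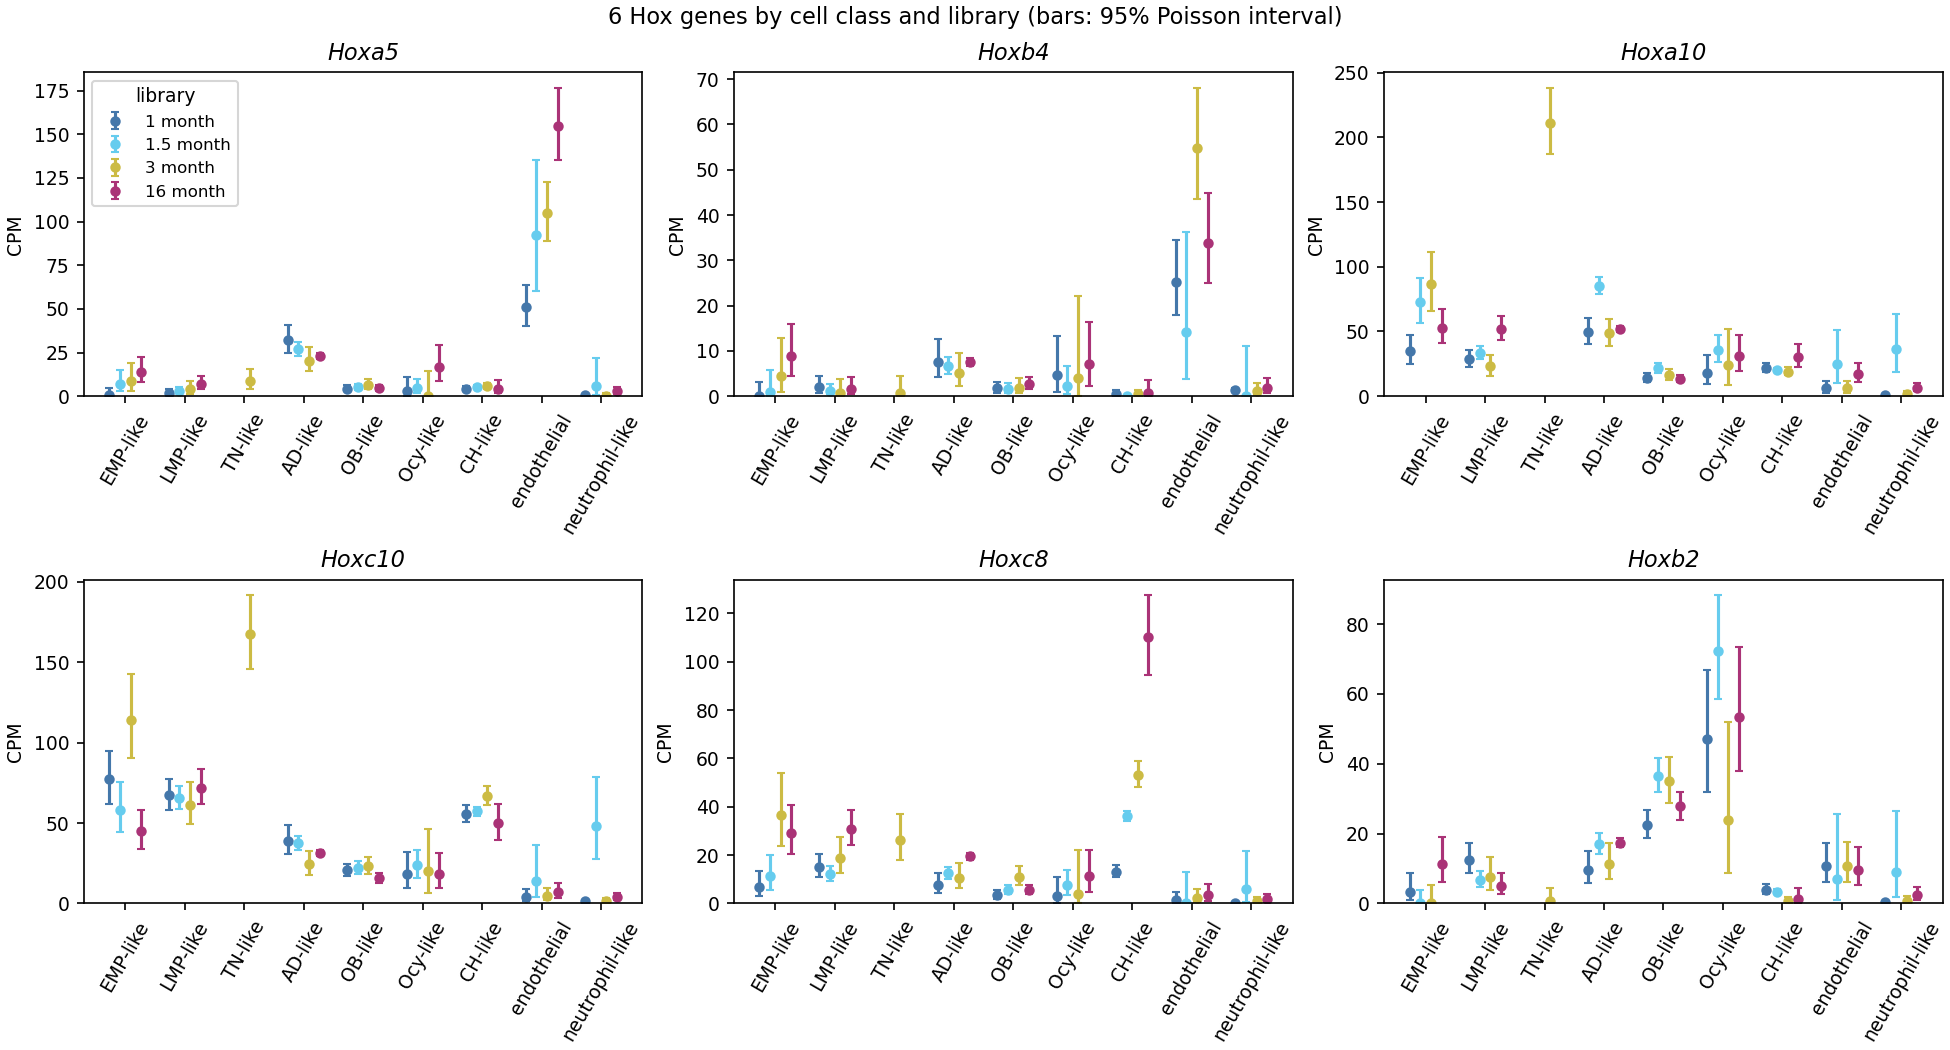
Levels (CPM) of Hoxa5, Hoxb4, Hoxa10, Hoxc10, Hoxc8 and Hoxb2 in 9 cell classes of each library, 1 panel per gene; bars are 95% exact Poisson intervals. Hoxa5 and Hoxb4 are highest in endothelial cells and Hoxc8 in chondrocytes at 1.5, 3 and 16 months. Among the mesenchymal classes Hoxb2 is highest in osteocytes or osteoblasts. Hoxa10 and Hoxc10 are spread over the mesenchymal classes, with the tendon-like cells of the 3 month library above all other points.

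Few members passed the limit in mural cells, which numbered 24 to 65 per library. At least 2-fold higher in mural cells were 0 of 5 members at 1 month (9.53% of all genes), 3 of 11 at 1.5 months (12.2%), 0 of 5 at 3 months (8.75%) and 3 of 10 at 16 months (7.62%), and lower were 2 (17.8%), 1 (14.2%), 1 (15.6%) and 1 (14.8%). The higher ones at 1.5 months were Hoxa7, Hoxc4 and Hoxc8 and at 16 months Hoxb2, Hoxc6 and Hoxc10. Hoxc4 and Hoxc8 did not pass the limit on UMIs in mural cells at 16 months, so the sets can be compared only in part. Hoxa7 was at 2.54 times its mesenchymal level at 1.5 months and 0.893 times at 16 months, and Hoxc10 at 0.727 and 2.43 times. Hoxb2 was at 1.74 and 2.41 times and Hoxc6 at 1.30 and 2.16 times. Hoxb2 was at 12.5, 38.0, 42.7 and 43.7 CPM in mural cells, Hoxa10 at 8.34, 40.4, 68.2 and 55.6 CPM and Hoxc4 at 12.5, 23.7, 17.1 and 19.8 CPM, from 3, 10, 2 and 5 UMIs. Hoxb7 and Hoxb8 were at 0 UMIs in mural cells of all 4 libraries, and Hoxa5 was at 0, 4.75, 8.53 and 3.97 CPM. Hoxb4 was at 25.01, 11.9, 8.53 and 15.9 CPM, from few UMIs. These Hoxb4 values were above the mesenchymal level in each library, so a raised Hoxb4 was not particular to endothelial cells.

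Mesenchymal and endothelial cells lay further apart in position along the clusters than in summed level. Paralogs 9 to 13 made up 65.3% (63.8 to 66.8), 63.0%, 64.8% and 48.6% (47.9 to 49.4) of the Hox UMIs of mesenchymal cells. In endothelial cells the share was 15.8% (12.1 to 20.01), 29.1% (19.8 to 39.9), 12.1% (9.52 to 15) and 17.6% (14.6 to 20.9). The intervals did not overlap in any library, and those of the endothelial cells at 1, 3 and 16 months overlapped each other in part. Mural cells were at 46.0%, 42.9%, 59.5% and 52.0%, and hematopoietic cells at 43.8%, 69.3%, 48.8% and 43.1%, both above the endothelial share in each library. At 1.5 months the hematopoietic Hox sum lay inside the range of the mesenchymal markers, and the part of free RNA in the hematopoietic shares was not tested. The mean paralog number over Hox UMIs was 8.11, 7.96, 8.13 and 7.47 in mesenchymal and 5.94, 6.41, 5.87 and 5.88 in endothelial cells. Paralog group 10 alone held 38.4%, 38.5%, 40.8% and 23.8% of the mesenchymal Hox UMIs and 4.30%, 12.8%, 2.80% and 6.03% of the endothelial ones. Paralog group 5 held 5.39%, 5.71%, 5.28% and 7.01% in mesenchymal and 22.9%, 34.9%, 28.5% and 39.8% in endothelial cells, and paralogs 12 and 13 together were rare in both.

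By cluster, mesenchymal Hox UMIs came from the a cluster for 34.2%, 44.6%, 41.3% and 49.0% and from the c cluster for 54.2%, 43.2%, 48.6% and 38.7%. The b cluster gave 9.36%, 9.57%, 8.56% and 9.72% and the d cluster 2.27%, 2.62%, 1.57% and 2.5%. The d cluster share at 3 months (1.14 to 2.10) lay below those at 1.5 months (2.28 to 2.99) and 16 months (2.27 to 2.75). Endothelial cells drew 53.0%, 59.3%, 48.9% and 60.9% from the a cluster, 37.0%, 15.1%, 40.5% and 29.0% from the b cluster and 4.30%, 20.9%, 4.55% and 8.10% from the c cluster. The c cluster, the largest source in mesenchymal cells at 1 and 3 months, was thus a small one in endothelial cells.

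Within the mesenchymal lineage, the classes differed in level and in position. Early and late mesenchymal progenitor-like cells (EMP and LMP), osteoblast-like cells (OB), osteocyte-like cells (Ocy), chondrocyte-like cells (CH) and tendon-like cells (TN) were separated. A further class was adipocyte lineage-like cells (AD), which express Adipoq and Lepr without being mature adipocytes. Summed Hox levels were 222, 263, 362 and 394 CPM in EMP, 233, 217, 203 and 322 in LMP, 284, 384, 289 and 361 in AD and 179, 200, 245 and 366 in CH. Osteoblast-like cells held the least in each library, at 123, 159, 162 and 131 CPM, and osteocyte-like cells held 178, 282, 191 and 235 CPM. In OB the 10 most abundant genes took 28.3%, 39.1%, 37.2% and 39.1% of the UMIs, which lowers the CPM of all other genes.

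Leaving TN aside, EMP had the most posterior pattern of these classes by value at 1, 1.5 and 3 months and LMP at 16 months. The EMP interval overlapped that of the next class, CH at 1 month and LMP at 1.5 and 3 months, so counting error leaves that order open. EMP had 77.9%, 75.1%, 75.7% and 52.1% of Hox UMIs from paralogs 9 to 13. LMP had 70.4%, 71.0%, 67.7% and 61.9%, CH 71.8%, 61.0%, 63.2% and 51.5%, AD 57.0%, 58.8%, 53.2% and 48.2%, OB 56.5%, 50.4%, 47.2% and 44.3% and Ocy 47.9%, 47.7%, 58.3% and 41.3%. In EMP, LMP, CH, AD, OB and Ocy alike, the 16 month value was the lowest of the 4. The tendon-like cells of the 3 month library (231 cells, against 17 and 18 at 1 and 1.5 months) had 86.6% (83.9 to 89.0) and a mean paralog number of 9.30. Their summed level of 586 CPM (545 to 630) was above that of every other class of that library. Hoxa10 stood at 211 CPM (187 to 238), Hoxc10 at 168 CPM (146 to 192) and Hoxa9 at 67.5 CPM (54.0 to 83.5) in them, and Hoxa7 at 3.18 CPM and Hoxb2 at 0.795 CPM. After thinning, 78.4% (72.4 to 83.7) of these cells had a Hox UMI and 41.7% a Hoxa10 UMI (88.3% and 55.4% at full depth), against 15.6% for Hoxa10 in all mesenchymal cells of that library. At 1 and 1.5 months an unnamed cluster led by Nppc, Nov and Sfrp2, genes also listed for TN in part, held 310 and 421 Hox CPM with 73.2% and 81.5% from paralogs 9 to 13, and Hoxa10 at 49.6 and 164 CPM and Hoxc10 at 96.6 and 99.4 CPM.

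**Figure D4:**
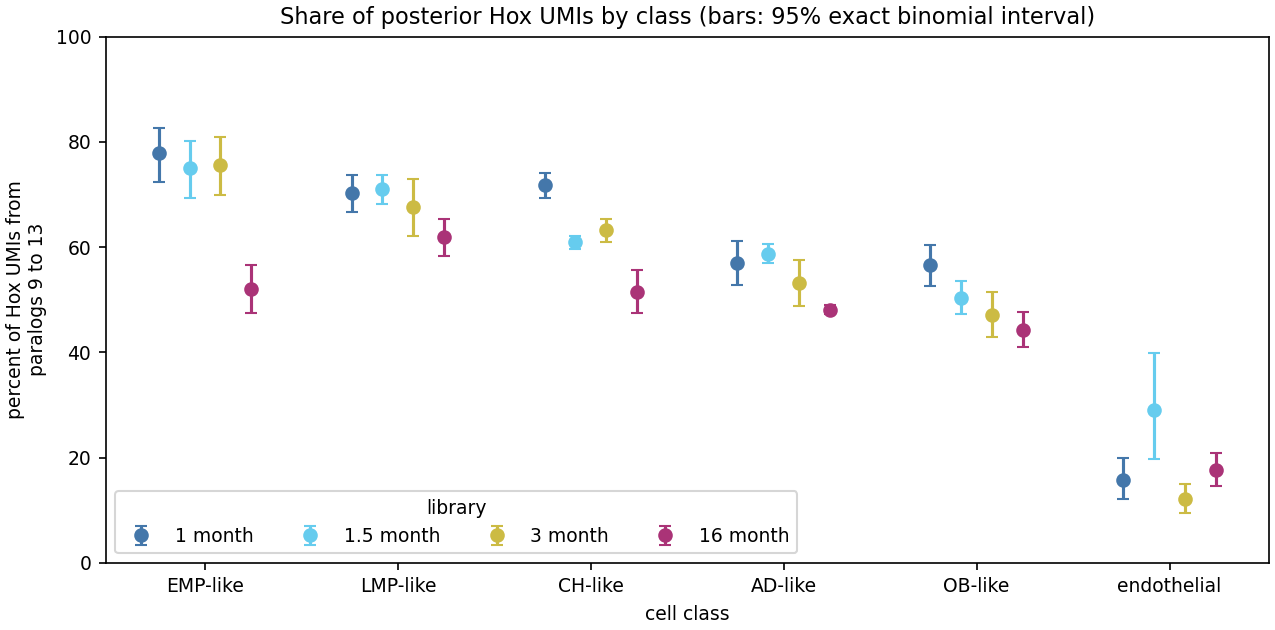
Percent of Hox UMIs from paralogs 9 to 13 in EMP, LMP, CH, AD, OB and endothelial cells of each library, with 95% exact binomial intervals. All 5 mesenchymal classes lie above the endothelial cells at every age, and each is lowest at 16 months.

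Adipocyte lineage-like cells had higher levels of Hoxa5, Hoxa7, Hoxc4 and Hoxc6 than OB or CH did in each library, while Hoxb2 was higher in OB and Hoxc8 in CH than in AD. Hoxa5 was at 32.0, 26.9, 20.3 and 23.0 CPM in AD, against 4.34, 5.06, 6.43 and 4.53 CPM in OB and 4.30, 5.48, 5.65 and 4.36 CPM in CH. Hoxa7 was at 16.8, 25.1, 30.4 and 43.4 CPM in AD, and in EMP at 5.93, 11.2, 13.2 and 43.9 CPM, so that the classes met at 16 months. Hoxa9 was at 32.0, 65.3, 38.3 and 45.2 CPM in AD and 6.22, 8.0, 12.6 and 7.75 CPM in OB. Hoxc6, a gene of the thoracic region and forelimb level, stood at 26.4, 29.3, 25.9 and 30.3 CPM in AD and 5.09, 8.49, 6.43 and 5.41 CPM in OB. Hoxc4 was at 7.62, 8.38, 7.32 and 8.43 CPM in AD. The AD values of Hoxc4 and Hoxc6 barely moved between the 4 libraries.

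Set against AD, OB were at least 2-fold lower for 9 of 12 members at 1 month (36.3% of all genes), 11 of 14 at 1.5 months (40.7%), 7 of 11 at 3 months (35.1%) and 12 of 15 at 16 months (43.7%). The median log2 fold was -1.84, -1.61, -1.41 and -1.81 over these members and -0.70, -0.81, -0.67 and -0.85 over all genes. At least 2-fold higher in OB was Hoxb2 at 1, 1.5 and 3 months and no member at 16 months (5.52%, 5.29%, 7.1% and 6.29% of all genes). CH were lower than AD for 8 of 13, 11 of 15, 8 of 11 and 7 of 15 members (20.8%, 27.8%, 29.9% and 29.4% of all genes). They were higher for 0, 1, 2 and 2 members (11.4%, 13.1%, 13.4% and 12.3%), which were Hoxc8 at 1.5, 3 and 16 months, Hoxc10 at 3 months and Hoxc9 at 16 months. LMP were lower than AD for 5 of 13, 9 of 14, 7 of 12 and 7 of 15 members (16.4%, 16.3%, 18.7% and 12.4% of all genes), among them Hoxa5 and Hoxa7 in each library, and higher for 0, 0, 1 and 1 (8.62%, 9.2%, 11.2% and 10.9%), which was Hoxc10 at 3 and 16 months. EMP were lower for 6 of 12, 8 of 15, 5 of 11 and 1 of 15 members (17.3%, 19.2%, 18% and 6.95% of all genes). EMP were higher for 0, 1, 2 and 0 members (9.31%, 9.25%, 10.5% and 8.16%), which were Hoxd9 at 1.5 months and Hoxc8 and Hoxc10 at 3 months.

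Hoxb2 was higher in bone-forming cells than in AD, CH, EMP, LMP or TN. It stood at 22.4 CPM (18.6 to 26.9), 36.6, 34.9 and 27.8 CPM in OB and at 47.2 CPM (32.0 to 66.9), 72.3 (58.5 to 88.3), 23.8 (8.74 to 51.9) and 53.5 (37.9 to 73.4) in Ocy. AD were at 9.65, 17.0, 11.3 and 17.4 CPM, CH at 3.91, 3.29, 0.808 and 1.25 CPM and EMP at 3.39, 0, 0 and 11.4 CPM. Mural cells were at 12.5, 38.0, 42.7 and 43.7 CPM, not below OB at 1.5, 3 and 16 months. The level was thus not particular to bone-forming cells. In thinned cells Hoxb2 was seen in 5.50%, 8.99%, 9.76% and 5.38% of OB and 0.867%, 0.681%, 0.115% and 0.885% of CH, and at full depth in 18.4%, 30.1%, 23.4% and 30.6% of OB. The b cluster as a whole gave 23.0%, 25.8%, 24.2% and 26.7% of Hox UMIs in OB and 30.8%, 29.9%, 16.7% and 29.3% in Ocy, against 2.98%, 2.22%, 1.10% and 1.02% in CH. Hoxc9 was at 36.5, 58.6, 63.5 and 32.4 CPM in Ocy and 22.2, 26.3, 21.4 and 18.9 CPM in OB.

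Hoxc8, which patterns the lower thorax and is known from cartilage, was highest in chondrocytes among the named mesenchymal classes at 1.5, 3 and 16 months. Its level in CH was 13.2 CPM (10.7 to 16.0), 36.1 (34.0 to 38.3), 53.3 (48.2 to 58.8) and 110 (94.5 to 128), with no overlap of intervals between libraries. At 1 month LMP were at 15.2 CPM. OB were at 3.39, 5.39, 11 and 5.56 CPM and EMP at 6.78, 11.2, 36.6 and 29.3 CPM. In thinned cells the CH share was 4.16%, 9.34%, 12.9% and 21.2% (13.7%, 37.0%, 32.8% and 63.3% at full depth), against 2.80%, 4.03%, 4.64% and 5.36% for mesenchymal cells, so the order of the libraries was the same in cells of equal depth. Hoxc9 in CH was at 23.7, 26.9, 50.9 and 66 CPM, also in that order. The c cluster gave 59.0%, 68.4%, 75.1% and 69.6% of Hox UMIs in CH. Hoxa10 in CH stayed at 22.0, 20.3, 19.0 and 30.5 CPM and Hoxc10 at 55.6, 57.2, 66.8 and 49.8 CPM. The 16 month library held 120 CH, against 577, 2056 and 891. They formed a single cluster led by 3110079O15Rik and Serpina1a, with Cytl1 and Acan among its top genes, while CH of the younger libraries also held clusters led by Col10a1, a gene of hypertrophic cartilage, and by cell cycle genes such as Pbk and Birc5. The part of these clusters in the Hoxc8 levels was not tested, and the epiphyses had been cut off at all ages.

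Hoxa10 and Hoxc10 also differed between mesenchymal classes. Hoxa10 was at 34.8, 72.5, 86.5 and 52.9 CPM in EMP, 28.6, 33.5, 23.0 and 51.8 CPM in LMP, 49.8, 85.4, 48.4 and 51.8 CPM in AD and 14.3, 21.6, 16.2 and 13.3 CPM in OB. Hoxc10 was at 77.1, 58.2, 114 and 44.8 CPM in EMP, 67.2, 65.6, 61.5 and 71.9 CPM in LMP, 39.1, 37.3, 24.2 and 31.2 CPM in AD and 20.5, 22.0, 23.3 and 15.5 CPM in OB. Among these 4 classes OB were lowest for both members in every library. AD lay above LMP for Hoxa10 at 1, 1.5 and 3 months and below LMP for Hoxc10 in all 4 libraries.

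The 16 month library was set against the 3 month library within classes, for members with at least 10 UMIs in the higher group. In EMP 7 of 13 members were at least 2-fold higher at 16 months (27.2% of all genes) and 1 was lower (8.33%). In LMP 4 of 13 were higher (26.5% of all genes), in OB 1 of 13 (11%), in AD 4 of 24 (15.8%) and in CH 4 of 10 (19.2%), and none was lower in these classes (7.92%, 7.81%, 4.11% and 13.9%). The median log2 ratio over all genes was 0.35 in EMP, 0.31 in LMP, 0.04 in OB, 0.21 in AD and 0.08 in CH, and over the members 1.03, 0.81, -0.25, 0.44 and 0.82. Taken relative to the median of all genes, 4 members were higher and 2 lower in EMP, 3 and 1 in LMP, 1 and 1 in OB, 4 and 0 in AD and 2 and 0 in CH. After thinning each cell, 2, 3, 0, 5 and 0 members were higher in EMP, LMP, OB, AD and CH and 1, 0, 2, 0 and 0 lower. In OB the single higher call was thus lost and a pair of lower ones came in its place. Thinning kept 121 of 164 EMP at 3 months and 144 of 147 at 16 months. For the counts after thinning and relative to the median, no share of all genes was computed. The 3 and 16 month libraries were clustered apart, and their classes rest on different clusters. EMP at 3 months included 51 cells led by Cxcl9 and Il33, and AD at 16 months included clusters led by Ccl2 and Il6, by Cxcl13 and by Saa3.

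In EMP, Hoxa7 was at 5.93, 11.2, 13.2 and 43.9 CPM at 1, 1.5, 3 and 16 months, 3.33-fold higher at 16 than at 3 months (1.63 to 7.68). Hoxa9 was at 21.2, 18.4, 24.9 and 51.3 CPM, 2.06-fold higher (1.19 to 3.75). For both genes the 3 younger libraries lay below the 16 month one. Hoxa3, of the neck region, was at least 2.41-fold higher (13 against 0 UMIs) and Hoxb2 at least 2.59-fold higher (14 against 0 UMIs), each counted against 3 UMIs in the 3 month library. Hoxc4 and Hoxc11 were both 3.33-fold higher, each with 12 against 2 UMIs (0.742 to 30.7), and Hoxb4 was 2.04-fold higher (0.538 to 11.4), with intervals that included 1. Hoxc10 went the other way, at 77.1, 58.2, 114 and 44.8 CPM, 0.392 of its 3 month level (0.272 to 0.560), and Hoxa10 was at 0.612 of it (0.423 to 0.886). For Hoxc10 the 1.5 month level was close to the 16 month one, so the 3 month library was the high one.

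At 3 months tendon-like cells formed a cluster of their own, and at 16 months there was none, with Cilp2 and Thbs4, among the top genes of TN at 3 months, among those of the LMP cluster. In LMP, Hoxa10 was 2.26-fold higher (1.53 to 3.40), Hoxc6 2.65-fold (1.57 to 4.70), Hoxc4 3.22-fold (1.22 to 10.7) and Hoxd8 5.88-fold (1.42 to 52.0, 19 against 2 UMIs). Hoxc6 had stood at 14.5, 13.5 and 12.2 CPM in the younger libraries and was at 32.2 CPM at 16 months. In CH, Hoxc6 was 2.74-fold higher (1.71 to 4.32), Hoxc8 2.07-fold (1.72 to 2.47), Hoxa9 2.04-fold (1.39 to 2.97) and Hoxd8 2.15-fold (1.02 to 4.28). Hoxc6 and Hoxd8 were therefore called in both classes. In AD the called members were low ones, with Hoxc11 2.42-fold higher (1.22 to 5.65), Hoxb3 3.6-fold (1.21 to 17.6), Hoxa11 5.86-fold (1.03 to 233) and Hoxa2 3.89-fold (0.679 to 156), the last pair with 1 UMI at 3 months. In OB, Hoxb3 was 3.22-fold higher (1.12 to 12.7).

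In the embryo Tbx5 marks forelimb and Pitx1 and Tbx4 mark hindlimb mesenchyme. Pitx1 stood at 15.9, 29.1, 25.5 and 16.8 CPM in mesenchymal cells, Tbx4 at 1.13, 0.712, 0.574 and 0.708 CPM and Tbx5 at 0.0537, 0.605, 0.669 and 2.81 CPM. Cells with a Tbx5 UMI and none of the hindlimb pair numbered 1, 10, 5 and 100, and cells with a Pitx1 or Tbx4 UMI and no Tbx5 numbered 243, 617, 218 and 710. At 16 months, 17 of 117 cells with Tbx5 also had Pitx1 or Tbx4 (14.5%, 8.70 to 22.2), against 710 of 4618 cells without Tbx5 (15.4%, 14.3 to 16.4). The intervals of these shares overlapped. Hoxc10 stood at 30.2 CPM in the Tbx5 cells and 40.3 CPM in the others at 16 months, a ratio of 0.749 (0.513 to 1.06), and Hoxa10 at 52.6 and 52.3 CPM, a ratio of 1.01 (0.757 to 1.32). Hoxa9 was at 40.6 and 44.2 CPM and Hoxc9 at 34.5 and 29.2 CPM. The groups differed in class, since 98 of the 100 Tbx5 cells were AD, against 522 of the 710 others. Hoxc10 stood at 31.2 CPM in AD and 71.9 CPM in LMP of that library. The part of class in these values was not tested. With 1, 10 and 5 Tbx5 cells, the younger libraries held too few for a comparison across libraries. At least 2-fold lower in the Tbx5 cells were Hoxc9 (1 against 189 UMIs) and Hoxc10 (2 against 423 UMIs) at 1.5 months (7.2% of all genes) and Hoxc10 (1 against 144 UMIs) at 3 months (4.76%), all with intervals that included 1. At 16 months Hoxd8 (4 against 68 UMIs, 0.427, 0.113 to 1.14) and Hoxa4 (1 against 17 UMIs, 0.427, 0.0102 to 2.72) were at least 2-fold lower in the Tbx5 cells, where 7.86% of all genes were, and both intervals included 1.

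The partners and regulators of Hox genes were read by the same contrast of mesenchymal and hematopoietic cells. Of 9 TALE cofactor genes, 7, 7, 7 and 8 passed the limit, of which 4, 4, 3 and 4 were at least 2-fold higher in mesenchymal cells (31.2%, 19.7%, 29.6% and 35% of all genes) and none lower (15.9%, 16.2%, 16.3% and 14.1%), with Meis1, Meis2 and Meis3 higher in each library. Meis2 was at 28.2, 22.4, 25.0 and 43.4 CPM in mesenchymal and 0.768, 1.74, 1.21 and 5.09 CPM in hematopoietic cells. Meis1 was at 9.93, 9.15, 10.3 and 12.0 CPM in mesenchymal and 2.85, 2.89, 2.99 and 5.51 CPM in hematopoietic cells. Pbx2 was at a like level in both lineages, with 10.0, 13.1, 16.9 and 31.9 CPM in mesenchymal and 10.4, 12.7, 17.5 and 30.7 CPM in hematopoietic cells, while these Meis genes were higher on the mesenchymal side.

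Of 22 genes that pattern limbs, 11, 11, 11 and 13 passed the limit, of which 11, 10, 11 and 13 were at least 2-fold higher in mesenchymal than in hematopoietic cells and none lower, beside the same shares of all genes (31.2%, 19.7%, 29.6% and 35% higher). Shox2, a gene of the upper limb segment, was at 118, 135, 160 and 171 CPM in mesenchymal cells and Prrx1, of early limb mesenchyme, at 169, 133, 115 and 225 CPM. Prrx2 was at 124, 103, 119 and 17.4 CPM in all mesenchymal cells, at 238, 267, 234 and 278 CPM in LMP, at 174, 226, 295 and 64.3 CPM in EMP and at 10.7, 10.3, 3.94 and 1.08 CPM in AD. The 16 month level was thus the lowest of the 4 in AD and EMP and the highest in LMP, and the part of the class shares in the pooled level was not tested. Irx5 peaked at 719 CPM in Ocy at 1.5 months, and Irx3 stood at 240, 204, 128 and 142 CPM in AD and 66.3, 145, 82.6 and 217 CPM in endothelial cells. Tbx15 was at 17.6, 29.4, 23.7 and 35.9 CPM, Msx1 at 13.4, 22.4, 18.1 and 25.9 CPM, Dlx5 at 77.0, 108, 66.8 and 49.4 CPM and Dlx6 at 26.3, 20.8, 15.6 and 15.6 CPM in mesenchymal cells.

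Of 13 regulators, 9 passed the limit in each library, of which 2, 0, 2 and 4 were at least 2-fold higher in mesenchymal cells (31.2%, 19.7%, 29.6% and 35% of all genes) and 3, 4, 2 and 1 lower (15.9%, 16.2%, 16.3% and 14.1%). Ezh2, the methyltransferase of the Polycomb complex that silences Hox clusters, was lower in each library, at 30.5, 17.0, 20.7 and 34.9 CPM in mesenchymal and 123, 92.6, 59.4 and 69.7 CPM in hematopoietic cells. Its partner Eed was at 17.3, 15.7, 16.1 and 12.2 CPM in mesenchymal and 39, 36.5, 34.1 and 24.2 CPM in hematopoietic cells, and Suz12 at 11.9, 11.6, 13.2 and 32.9 against 24.1, 38.2, 22.1 and 49.7 CPM. Kmt2a, which keeps Hox genes active, was at 22.0, 20.3, 24.3 and 93.6 CPM in mesenchymal cells. Bmi1 was at 11.8, 20.5, 19.4 and 29.0 CPM, and was higher than in hematopoietic cells at 1, 3 and 16 months. Of the 8 listed transcripts of the Hox clusters that encode no protein, Hotairm1 was at 12.8, 25.3, 22.1 and 28.3 CPM in mesenchymal, 23.9, 42.6, 49.4 and 49.1 CPM in endothelial and 1.23, 6.94, 3.92 and 4.66 CPM in hematopoietic cells. The Cdx genes, which start Hox expression in the embryo, peaked at 0.295 CPM for Cdx1 and 0.130 CPM for Cdx2, and Cdx4 was at 0.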

How the data were processed

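Tables of UMI counts per gene and cell barcode were deposited by the authors, unnormalized, for 4 droplet libraries. The submitters' processing notes name Cell Ranger 3.0.2, Seurat 2 and mm10. The annotation release, the strand setting and the handling of reads in more than 1 gene are not given in the sources used here.

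From these counts, barcodes listing between 200 and 6000 genes, with mitochondrial UMIs no higher than 5%, were clustered in Seurat 5.3.0 (R 4.3.3, 2000 variable genes without the Hox and related lists, 30 dimensions, resolution 0.8), the 1 and 1.5 month libraries together and the other libraries each on its own. A class was named "-like" where at least 3 markers passed: in at least 10% of cells, at least 25% of the level of the highest cluster and 2-fold over the median cluster. UMIs were summed by class in Python 3.11.15 with numpy 2.4.6, pandas 2.3.3 and scipy 1.17.1. Scrublet in scanpy 1.11.5 marked 0, 96, 54 and 10 cells, under 0.5% in the 1 and 16 month libraries where it did not work, so no doublets were removed beyond the gene limit. A value of 3 counts stood for 0 in folds. Thinning drew 3000 UMIs per cell and left out shallower cells.

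No test was run, since each age is 1 library. Members were given by library where they reached 20 CPM in a class of at least 50 cells or were 2-fold apart between 3 and 16 months, and genes of the other lists where they reached 50 CPM, with Tbx4, Tbx5 and Pitx1 always given. Some genes of the lists are not reported here. The members and lists were chosen with earlier results of these data known. The fold and interval code was tested on simulated data. Alternatives were other resolutions, mitochondrial limits, CPM limits, fold sizes, averaging and thinning, and, chosen after seeing the data, leaving out the 5% of cells with the highest Scrublet score or the unnamed hematopoietic clusters, and centering on the median of all genes.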

Additional observations from a re-analysis of the deposited data

Results flagged for a closer look

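A set of 4 members differed in opposite directions between 3 and 16 months in different mesenchymal classes, with intervals on both sides of 1. They were picked by that rule, and the classes rest on different clusters in these libraries. The difference between classes was not tested, since each age is 1 library. Hoxa9 was at 2.06 times its 3 month level in EMP, 1.75 times in LMP and 2.04 times in CH, and at 0.617 times in OB. Hoxa10 was at 2.26 times in LMP and 1.61 times in CH, and at 0.612 times in EMP. Hoxc8 was at 1.64 times in LMP, 1.82 times in AD and 2.07 times in CH, and at 0.504 times in OB. Hoxc9 was at 1.30 times in CH and at 0.757 times in AD. OB were on the low side for Hoxa9 and Hoxc8, in a class whose median log2 ratio over all genes was 0.04.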

How the results depend on the processing

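No paired analysis was possible because each age is 1 library and no replicates exist. Of the values and counts that answer a comparison, 142 stayed close to those reported and 34 moved under an alternative. The 142 include alternatives that removed no cells, such as leaving out Scrublet calls at 1 month or unnamed hematopoietic clusters at 16 months. They also include counts of 0 that stayed at 0, so the tally is no measure of how firm the results are. The labels of close and moved rest on size and not on direction, and the cause was not tested. Within OB alone, 1 member higher and 0 lower at 16 months became 0 higher and 2 lower with thinned cells and 3 and 3 with a fold of 1.5. The hematopoietic level as a percent of the mesenchymal one, reported as 8.05, 30.6, 7.5 and 18.5% at 1, 1.5, 3 and 16 months, became 6.90, 5.43 and 12.6% at 1, 3 and 16 months without the 5% of cells with the highest Scrublet score. As a mean over cells it was 6.70, 22.3, 6.25 and 10.5%, and with thinned cells 6.70, 20.2 and 12.4% at 1, 1.5 and 16 months. With each library clustered on its own it was 7.48 and 43.0% at 1 and 1.5 months, without unnamed hematopoietic clusters 7.52, 25.6 and 5.92% at 1, 1.5 and 3 months, and with a limit of 10% mitochondrial UMIs 24.0% at 1.5 months. The endothelial share of paralogs 9 to 13 was 8.51% at 3 and 13.7% at 16 months without the cells of the highest Scrublet score. Members higher in mesenchymal than in hematopoietic cells numbered 16 and 17 at 1 and 3 months with a limit of 1 CPM and 29, 22 and 23 at 1, 3 and 16 months with no limit, where 2 were lower at 16 months. With a fold of 4 there were 5 at 1.5 months. Over EMP, LMP, OB, AD and CH, 20 members were higher and 1 lower at 16 than at 3 months. Higher members numbered 37 with a fold of 1.5 and 10 with thinned cells. Lower members numbered 0 at resolution 0.5, 2 at resolution 1.2, with a limit of 10% mitochondrial UMIs or without the cells of the highest Scrublet score, 7 with a fold of 1.5, 3 with thinned cells and 4 relative to the median of all genes. Chondrocyte-like cells alone gave no value for the Tbx5 comparison. At 16 months thinned cells gave 0 members apart and AD alone gave 3, against 2. The depth of the small classes, above all the 31 endothelial cells at 1.5 months and the mural cells, limits every value in them: the summed mural level at 16 months ran from 354 to 652 CPM over the alternatives.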

Other observations

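Hoxd4, a gene of the upper neck, had 22, 29 and 17 UMIs over all barcodes at 1, 1.5 and 3 months and 0 at 16 months, in the table that lists more genes. Its neighbor on the opposite strand, Hoxd3os1, peaked at 8.80 CPM in endothelial cells at 3 months. Hoxc13 had 1, 8, 4 and 52 UMIs, Hoxc12 0, 10, 3 and 21 UMIs and Hoxa13 11, 8, 4 and 88 UMIs over all barcodes.

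Clusters left out of the mesenchymal lineage also held Hox UMIs. Clusters with markers of blood and mesenchymal cells together held 107, 153, 173 and 269 Hox CPM, and 215 cells of low depth at 16 months held 186 Hox CPM. A cluster of 63 cells without a name at 3 months, led by Ppbp, Pf4 and Gp1bb, held 96.2 Hox CPM. Erythroid-like cells held 12.6, 34.4, 12.0 and 80.1 Hox CPM, with 39 such cells at 1.5 months and 250 at 16 months.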
